A study of Mus musculus with 6 samples.

Results

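The S100 family was examined here as 9 genes, S100a1, S100a4, S100a6, S100a8, S100a9, S100a10, S100a11, S100a13 and S100a16, picked by gene symbol from the 55450 genes of the deposited count table. The study used kidney tissue of male wild-type C57BL/6J mice, bought at 7 weeks of age and kept for 1 week before the experiment. There were 6 mice in each group, of which 3 were sequenced. The day-0 group served as control and is labelled with 20% PEG, a vehicle, and the day-21 group was given adenine (0.16 g/kg) together with potassium oxonate (2.4 g/kg) by mouth every day up to day 21. Adenine and the uricase blocker oxonate together raise uric acid and injure the kidney, and the comparison asks how the kidney on day 21 differs from that on day 0. By the stated days, age and repeated gavage moved with the treatment and cannot be told apart from it. No vehicle is stated for the day-21 group, so whether vehicle differed too is not known and could not be told apart either. Each mouse gave 1 library of between 10963849 and 14333311 counts.

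S100 proteins are small calcium-binding proteins built on a pair of EF hands, and most of them work as dimers that change shape when calcium binds and then grip a target protein such as an annexin. Some also leave damaged or activated cells and act outside them as alarmins on the receptor for advanced glycation end products (Ager) and on Toll-like receptor 4 (Tlr4). In the kidney, S100a8 and S100a9 are best known from neutrophils and monocytes, S100a4 as fibroblast-specific protein, and S100a6, S100a10 and S100a11 from epithelium and stroma.

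The family did not move as a block. In the day-21 group S100a6 and S100a11 rose by 4.96-fold and 3.08-fold, S100a10 and S100a16 rose by 1.80-fold and 1.55-fold, and both subunits of calprotectin, S100a8 and S100a9, fell, by 1.97 and 1.99 on the log2 scale. Of the 9 genes, 8 had enough counts to be tested. Of these 8, 4 were called higher and 2 lower, a call asking for a fold over 1.5 together with an adjusted p under 0.05. Every adjusted p given here comes from the quasi-likelihood test of edgeR, adjusted by the Benjamini-Hochberg method. With all 6 mice the adjustment ran across 16592 tested genes, and each fit without a mouse used its own tested genes. Across all genes tested, 35.1% were called in this way, 19.6% higher and 15.5% lower. In the same 6 members the groups did not overlap in normalized counts, which held in 57.1% of all genes tested. The median log2 fold change of the 8 members was 0.60, against 0.03 over all genes.

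The 9 genes lie on chromosome 3 (GRCm38, GENCODE M21 annotation). S100a1 to S100a9 form a cluster of 184688 bases that holds 7 of the members, and S100a11 and S100a10 lie together farther along, 2824766 bases beyond S100a9. The stretches in front of the start sites are shown for the pair that rose most, S100a6 and S100a11, and for the pair that fell, S100a8 and S100a9. They are taken from RefSeq promoter windows on GRCm38.p6 and printed 5′ to 3′ on the gene's own strand, from 250 bases upstream of the start site to the start site or, where it comes sooner, the first base of an annotated exon. Capitals mark a match to AP-1 (TGANTCA) or C/EBP (TTGCNNAA), searched on both strands.
S100a6, chr3:90612644-90612881, plus strand: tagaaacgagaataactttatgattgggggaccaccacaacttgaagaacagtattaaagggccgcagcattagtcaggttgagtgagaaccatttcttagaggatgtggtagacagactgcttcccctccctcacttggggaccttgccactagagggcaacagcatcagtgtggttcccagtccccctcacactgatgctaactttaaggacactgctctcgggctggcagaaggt
S100a11, chr3:93520246-93520487, plus strand: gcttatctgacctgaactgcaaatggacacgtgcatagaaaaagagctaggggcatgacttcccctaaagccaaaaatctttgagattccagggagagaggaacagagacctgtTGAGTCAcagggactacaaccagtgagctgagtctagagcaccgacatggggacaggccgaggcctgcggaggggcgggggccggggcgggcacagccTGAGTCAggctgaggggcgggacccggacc
S100a8, chr3:90668821-90668977, plus strand: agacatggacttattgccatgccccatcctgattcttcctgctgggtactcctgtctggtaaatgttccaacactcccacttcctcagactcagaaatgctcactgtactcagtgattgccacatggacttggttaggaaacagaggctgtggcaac
S100a9, chr3:90695722-90695971, minus strand: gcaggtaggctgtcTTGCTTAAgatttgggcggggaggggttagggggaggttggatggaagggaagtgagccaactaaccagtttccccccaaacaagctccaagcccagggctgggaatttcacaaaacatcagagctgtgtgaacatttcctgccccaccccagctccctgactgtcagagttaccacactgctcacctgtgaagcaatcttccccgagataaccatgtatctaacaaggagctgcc
The S100a11 window held 2 AP-1 matches, which begin at positions -136 and -38 from the start site, and the S100a9 window held 1 C/EBP match at -236. Of 32851 promoter windows of the same length, 7.81% held an AP-1 match and 10.8% a C/EBP match. Windows were given for 8 of the 9 members, 9 windows in all, with none for S100a10. Of these 9, 2 held an AP-1 match, 1 a C/EBP match, 3 a TATA match (TATAAA, in 13.6% of all windows), and none a match to STAT (TTCNNNGAA, in 8.3%) or to the NF-kB consensus (in 0.411%). The motifs were chosen after the values of the genes were seen. A match is a run of letters and says nothing about binding in these kidneys.

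**Figure D1:**
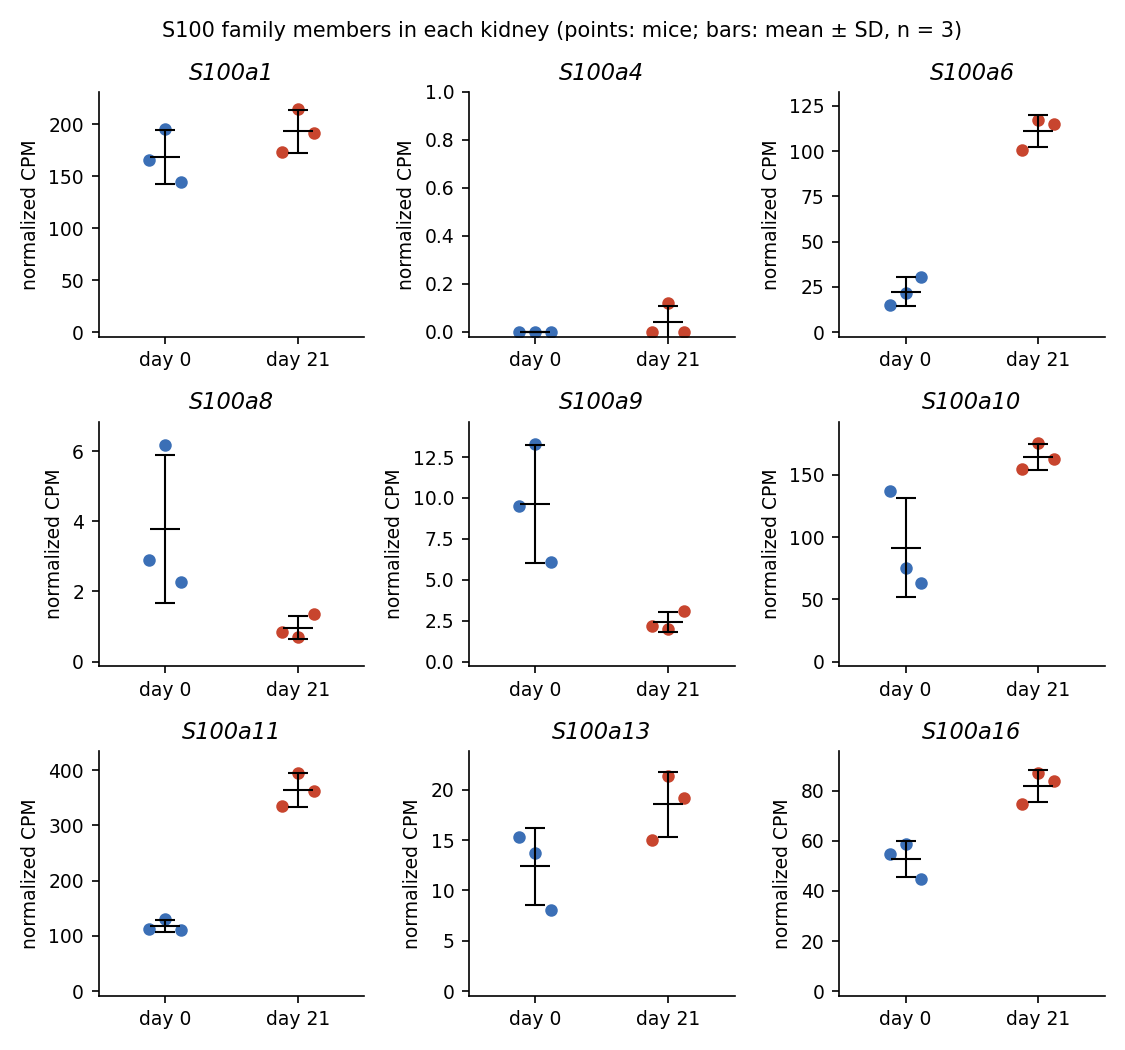
Normalized CPM (vertical axis, linear, with 0 just above the base line) of the 9 S100 members in each of the 3 day-0 mice (blue) and 3 day-21 mice (red), with the mean and SD of each group in black. S100a6, S100a10, S100a11 and S100a16 lie higher in all day-21 mice, S100a8 and S100a9 lower, S100a1 and S100a13 overlap, and S100a4 is near 0, its lower error bar running off the axis.

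S100a6, or calcyclin, binds annexins and the calcyclin-binding protein Cacybp, and it is known from proliferating and injured epithelium and from fibroblasts. S100a6 was measured at 15.0, 21.6 and 30.6 normalized CPM (CPM, counts scaled to a common library total after TMM scaling) in the 3 day-0 mice and at 101, 117 and 115 CPM in the 3 day-21 mice. Every day-21 mouse lay far above every day-0 mouse, and the day-0 mice spread over a wider range relative to their mean, 22.4 ± 7.82 CPM (SD, n = 3), than the day-21 mice, 111 ± 8.87 CPM (SD, n = 3). The log2 fold change was 2.31 (SE 0.21), with an adjusted p of 1.73e-05. Leaving out any 1 mouse kept it between 2.08 and 2.57.

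S100a11, or calgizzarin, binds annexins A1 and A2 and takes part in membrane repair and in the growth control of epithelial cells. Its level was 113, 131 and 110 CPM on day 0 and 335, 395 and 362 CPM on day 21. The groups were far apart, with means of 118 ± 11.2 and 364 ± 30.5 CPM (SD, n = 3 each). The log2 fold change was 1.62 (SE 0.12), with an adjusted p of 4.97e-06, the smallest among the members. Of the 50-base words of its longest transcript, 41.1% also occur in 3 processed pseudogenes, Gm7665, Gm12854 and Gm29240. The counts of these copies came to between 3.64% and 6.65% of those of S100a11 in each mouse, and adding them, an alternative set after seeing the data, changed the log2 ratio of the group means from 1.62 to 1.61.

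S100a10, also called p11, is the member that has lost calcium binding and stays in its active shape, paired with annexin A2 in a tetramer that carries the calcium channels Trpv5 and Trpv6 to the membrane. S100a10 stood at 137, 75.3 and 62.9 CPM on day 0 and at 155, 176 and 162 CPM on day 21. Day-0 replicate 1 lay close to the day-21 mice, although the groups did not overlap, and the day-0 SD was large at 39.5 CPM around a mean of 91.6 CPM (n = 3). The log2 fold change was 0.84 (SE 0.24), with an adjusted p of 0.0155. The call was lost without day-0 replicate 2 (log2 0.72, adjusted p = 0.067).

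S100a16, a widely expressed member, stood at 54.9, 58.8 and 44.9 CPM on day 0 and at 74.6, 86.9 and 84.0 CPM on day 21. The groups did not overlap, and the difference was the smallest of those called, at a log2 fold change of 0.63 (SE 0.13) with an adjusted p of 0.00242. Without day-0 replicate 3, the lowest mouse, the log2 fold change of 0.51 was under the fold threshold.

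S100a1, a partner of the calcium pump Atp2a2 in heart and muscle, was the highest member per length on day 0. It stood at 165, 196 and 145 CPM on day 0 and 174, 215 and 191 CPM on day 21. The groups overlapped, and the log2 fold change of 0.20 had a 95% confidence interval from -0.11 to 0.50 and an adjusted p of 0.267. S100a13, which takes part in the release of Fgf1 and interleukin 1 alpha from cells that secrete them without a signal peptide, stood at 15.3, 13.8 and 8.04 CPM on day 0 and at 15.0, 21.4 and 19.2 CPM on day 21. Day-21 replicate 1 lay within the day-0 range. The log2 fold change of 0.58 (SE 0.23) missed both thresholds, the fold narrowly and the adjusted p at 0.0666. S100a13 was called without day-0 replicate 1 (log2 0.73, adjusted p = 0.036), while without day-0 replicate 3 its log2 fold change was 0.34 (adjusted p = 0.177). S100a1 and S100a13 lie on opposite strands with 42 bases between them.

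S100a4, the member known as fibroblast-specific protein, gave 0, 0 and 0 counts on day 0 and 0, 2 and 0 counts on day 21. Both groups were at or below the floor of 3 counts per library, equal to between 0.179 and 0.309 CPM, so no fold was computed and S100a4 was not tested. In the annotation S100a4 shares exon bases with another gene. Of the 584 exon bases of S100a4 (chr3:90603771-90606045, plus strand), 51.7% lie in exons of Gm42674, a protein-coding model on the same strand that had 0 counts in all mice. Its 3 merged exons keep 36, 86 and 160 bases that belong to S100a4 alone. Among protein-coding genes that share at least 50% of their exon bases with another gene on the same strand, 78.1% of 424 had 10 counts or fewer over the 6 mice. The share was 29.6% of 20189 genes that share no base on their strand and 17.8% of 1338 genes that share some bases but under 50%, a comparison made after the S100a4 counts were seen. Whether genes that share so many bases are themselves less expressed was not tested. How reads in shared bases were counted is not given in the sources used here, and the part of the shared exons in the S100a4 counts was not tested. At the same time all 9 fibroblast markers of the list, among them collagen and platelet-derived growth factor receptor genes, rose, from a summed 275 to 404 CPM on day 0 to 1213 to 2282 CPM on day 21.

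S100a8 and S100a9 form calprotectin, the metal-binding alarmin that fills the cytosol of neutrophils and is also made by monocytes. S100a8 gave 29, 75 and 22 counts in the 3 day-0 mice and 12, 12 and 22 counts in the 3 day-21 mice, equal to 2.91, 6.18 and 2.27 CPM and to 0.848, 0.716 and 1.35 CPM. S100a9 gave 95, 161 and 59 counts on day 0 and 31, 33 and 51 counts on day 21, equal to 9.53, 13.3 and 6.08 CPM and to 2.19, 1.97 and 3.12 CPM. Both were lower in every day-21 mouse than in any day-0 mouse on the CPM scale, both were highest in day-0 replicate 2, and both were highest among the day-21 mice in replicate 3. The log2 fold change was -1.97 (SE 0.46) for S100a8, with an adjusted p of 0.00596, and -1.99 (SE 0.32) for S100a9, with an adjusted p of 0.000684. Without day-0 replicate 2 these became -1.41 (adjusted p = 0.0323) and -1.68 (adjusted p = 0.004).

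The balance of the 2 subunits did not differ beyond the spread between mice. The ratio of S100a9 to S100a8 counts within a library was 3.28, 2.15 and 2.68 on day 0 and 2.58, 2.75 and 2.32 on day 21. The day-21 values lay inside the day-0 range, and the difference of the mean log2 ratio was -0.07 (SE 0.19, n = 3 per group, p = 0.9, two-sided exact permutation test, in which 0.1 is the smallest p that 3 mice against 3 can give). Its sign changed when single mice were left out, within a range from -0.22 to 0.08.

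Blood genes were lower on day 21, as calprotectin was. All 5 blood genes, 4 globins and Alas2, the erythroid enzyme of heme synthesis, fell, from a summed 227 to 524 CPM on day 0 to 33.8 to 77.5 CPM on day 21, and the highest sum stood in day-0 replicate 2. Per 1000 globin counts of the same library, S100a8 and S100a9 together gave 55.5, 38.9 and 37.8 counts on day 0 and 40.7, 83.6 and 60.6 counts on day 21. On this scale, added after seeing the data, the groups overlapped, with a mean log2 difference of 0.45 (SE 0.35, no test) that lay between 0.20, without day-21 replicate 2, and 0.72, without day-21 replicate 1, when single mice were left out. Per 1000 counts of Lyz2, the lysozyme gene of macrophages, which rose, S100a8 and S100a9 together gave 470, 499 and 272 counts in the day-0 mice and 13.5, 6.58 and 14.0 counts in the day-21 mice. The groups were far apart on that scale, also added after seeing the data, with a mean log2 difference of -5.22 (SE 0.45, no test). Both results follow from the separate changes, a median log2 fold change of -2.46 for the globins and 3.31 for Lyz2. They do not show where S100a8 and S100a9 come from. The part of blood left in the kidneys in the fall of S100a8 and S100a9 was not tested.

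Neutrophil markers were scarce throughout. Of 10 neutrophil genes 4 were tested and 1 rose, the receptor Csf3r (log2 1.19, adjusted p = 0.0126). The granule enzymes Mpo and Elane had 0 counts in all mice, and the lineage marker Ly6g had at most 4 counts in any mouse. The granule protein gene Ngp gave 17, 26 and 0 counts on day 0 and 0 in every day-21 mouse, and the collagenase gene Mmp8 gave 9, 35 and 4 counts in the day-0 mice against 2, 7 and 1 in the day-21 mice. The summed list ran from 9.79 to 16.2 CPM on day 0 and from 10.2 to 14.4 CPM on day 21, so its groups overlapped. Csf3r alone held 6.57, 7.34 and 6.19 CPM of the day-21 sums of 14.4, 11.6 and 10.2 CPM. Mmp9 (log2 0.31), Cxcr2 (log2 -0.80) and Ltf (log2 -0.76) were tested and not called. Untested Retnlg reached at most 0.495 CPM in a day-21 mouse and at least 0.515 CPM in each day-0 mouse. A separate sum of Ngp, Ltf, Mmp8, Retnlg and Camp, picked after values were seen, averaged 5.64 CPM (range 1.24 to 8.57) for day 0. This sum left out Csf3r, which rose, with other genes of the list, and added Camp from outside the list. For day 21 it averaged 1.48 CPM (range 0.980 to 1.91), so these groups overlapped too. Of 10 macrophage and monocyte genes, in contrast, 9 rose and the sum went from between 166 and 218 CPM to between 957 and 1280 CPM. In bulk tissue, fewer cells of a type and less RNA per cell cannot be told apart.

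**Figure D2:**
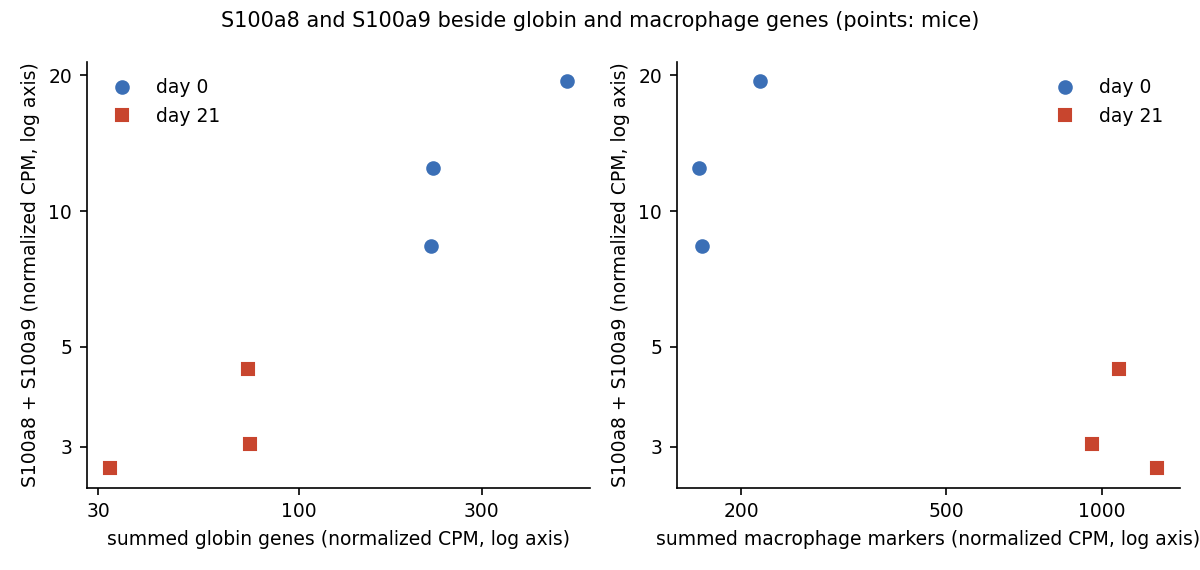
Summed S100a8 and S100a9 (vertical axis, normalized CPM, log scale) against the summed 4 globin genes (left) and the summed 10 macrophage and monocyte markers (right, both normalized CPM, log scale), 1 point per mouse, blue circles for day 0 and red squares for day 21. Day-21 mice are low in S100a8 and S100a9, low in globin and high in macrophage markers, and day-0 replicate 2 is highest in both S100a8 with S100a9 and globin.

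On a scale of CPM per kilobase of exon, which allows genes to be compared, the order of the members changed. On day 0, S100a1 (243 ± 37.2) and S100a11 (231 ± 21.9) led and overlapped, followed by S100a10 (75.5 ± 32.6) and S100a16 (32.7 ± 4.42, SD, n = 3 each). S100a9 (18.4), S100a13 (17.3) and S100a6 (16.4) came next and did not differ beyond their spread, with S100a8 (5.45) and S100a4 (0) last. On day 21 the order was S100a11 (713 ± 59.7), S100a1 (278 ± 29.5), S100a10 (136 ± 8.67), S100a6 (81.2 ± 6.49), S100a16 (50.6 ± 3.99, SD, n = 3 each), S100a13 (25.9), S100a9 (4.65), S100a8 (1.40) and S100a4 (0.07), and no neighbours overlapped. With the length of the longest transcript in place of all exon bases, S100a6 came before S100a9 and S100a13 on day 0. Summed over the 9 members, the level was 479 ± 60.3 CPM on day 0 and 937 ± 78.8 CPM on day 21 (SD, n = 3 each). S100a11 took 24.8% of this sum on day 0 and 38.9% on day 21, while the share of S100a1 went from 35.2% to 20.6% and that of S100a6 from 4.86% to 11.9%.

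Along the cluster the tested genes fell into runs. S100a1 and S100a13, which were not called, are followed by S100a14, S100a16 and S100a6, which rose. Around S100a6, 5 S100 genes (S100a2, S100a3, S100a4, S100a5 and S100a7a) had too few counts to test. S100a8 and S100a9, which fell, close the cluster with 22596 bases between them, and no gene that fell lies among those that rose. The other 4 genes annotated in this stretch were not tested for lack of counts.

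**Figure D3:**
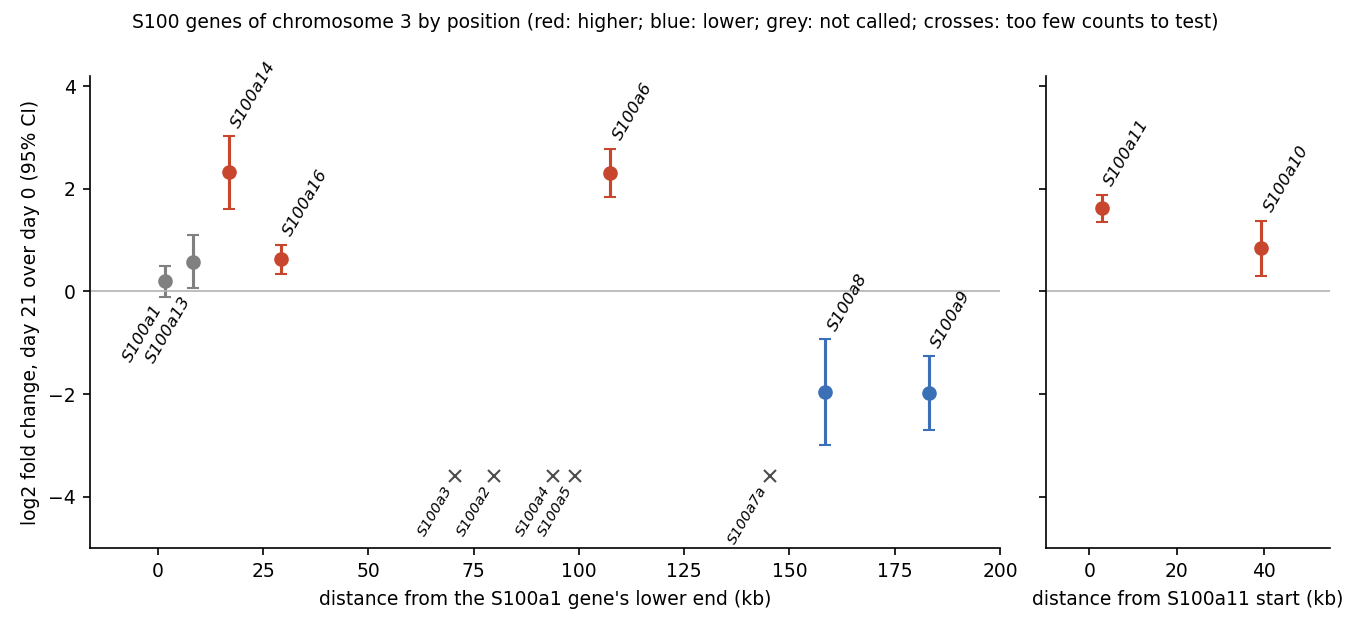
Log2 fold change of day 21 over day 0 with its 95% confidence interval (vertical axis) for the S100 genes of chromosome 3, placed by the midpoint of each gene in kilobases from S100a1 (left) and from S100a11 (right). Red genes were higher, blue lower and grey not called, and crosses at the bottom mark genes with too few counts to test. Genes higher on day 21 stand on both sides of untested ones, and S100a8 and S100a9 sit at the end of the cluster.

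Among the 9 other S100 genes listed, 8 were in the table and 2 of those were tested, with 1 higher and 1 lower. S100a14, an epithelial member that binds Ager, gave 13, 21 and 9 counts on day 0 and 73, 125 and 123 counts on day 21, a log2 fold change of 2.32 (SE 0.32, adjusted p = 0.000216). S100g, the vitamin D-dependent calbindin that ferries calcium across the intestine and the distal nephron, lies on chromosome X and moved the other way. It gave 375, 533 and 183 CPM on day 0 and 68.5, 98.8 and 63.8 CPM on day 21, a log2 fold change of -2.24 (SE 0.33, adjusted p = 0.000358). S100a2 and S100a5 had 0 counts in every mouse, and S100a3, S100a7a, S100b and S100z had at most 5 counts in any mouse. S100a7l2 is not in the annotation used.

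Of the 14 genes for S100 receptors and their signalling, 3 rose, 1 fell and 10 were not called, with a median log2 fold change of 0.12. Over all genes tested 19.6% were called higher and 15.5% lower, and the counts of this list and of those below stand beside these shares. Ager, the receptor named first for S100 proteins, was scarce, with 5, 8 and 4 counts in the day-0 mice against 15, 12 and 37 in the day-21 mice, and its log2 fold change of 1.33 (SE 0.55) had an adjusted p of 0.0735. Tlr4, the receptor for calprotectin, stood at 7.22, 3.87 and 10.9 CPM on day 0 and at 11.3 and 13.1 CPM in day-21 replicates 2 and 3, with replicate 1 between the upper day-0 values. Its groups overlapped (log2 0.66, adjusted p = 0.109).

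Cd14, the coreceptor that hands ligands to Tlr4, was the member of this list that differed most, at 9.63, 9.64 and 6.29 CPM on day 0 and 71.5, 79.2 and 70.2 CPM on day 21 (log2 3.10, SE 0.17, adjusted p = 1.21e-06). The adaptor Myd88 (log2 0.64) and Mcam, an adhesion molecule that binds S100a8 with S100a9 (log2 0.70), rose as well. Of the Myd88 exon bases 11.3% are shared with Acaa1a on the other strand, and the strand setting of the counts is not given in the sources used here. Cd36, a fatty acid and scavenger receptor that also binds calprotectin, fell (log2 -1.38, adjusted p = 0.00873). The count of 4 called in this list fell to 2 without day-21 replicate 1.

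Of 15 binding partners, 6 rose and 2 fell, with a median log2 fold change of 0.30. Anxa2, the partner of S100a10, stood at 74.7, 80.6 and 87.9 CPM on day 0 and 260, 301 and 296 CPM on day 21, which is a log2 fold change of 1.82 (SE 0.12, adjusted p = 2.41e-06). Anxa1, the annexin bound by S100a11, rose by 2.03 on the log2 scale, Anxa6 by 1.10 and Myh9, the nonmuscle myosin heavy chain bound by S100a4, by 0.84. The calcium channel genes Trpv6 (log2 2.11) and Trpv5 (log2 1.74) rose with them. Fgf1, the growth factor released with S100a13, fell (log2 -1.47), as did Atp2a2, the calcium pump bound by S100a1 (log2 -1.08). Cacybp, named for its binding of calcyclin, differed by -0.03 (SE 0.14, adjusted p = 0.895).

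S100a10 and Anxa2 both rose, and with 3 mice per group the exact test of their ratio could not reach p under 0.05. The ratio of S100a10 to Anxa2 counts within a library was 1.83, 0.934 and 0.715 on day 0 and 0.595, 0.583 and 0.549 on day 21. All day-21 ratios lay below all day-0 ratios, with a mean log2 difference of -0.89 (SE 0.40, n = 3 per group, p = 0.1, two-sided exact permutation test, the smallest p that this design allows). Leaving out single mice moved the difference between -1.18 and -0.51, the smaller size without day-0 replicate 1.

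**Figure D4:**
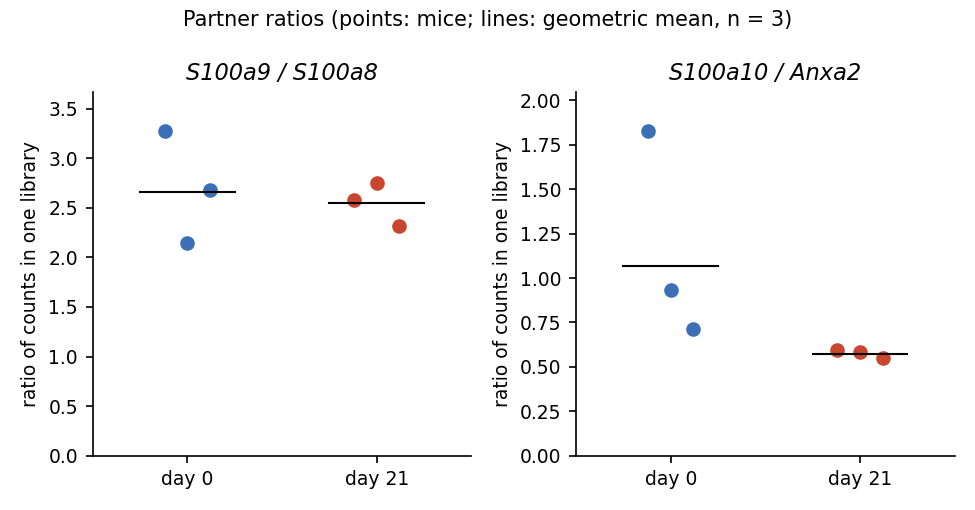
Ratio of counts within 1 library (vertical axis, linear, from 0) for S100a9 over S100a8 (left) and S100a10 over Anxa2 (right), 1 point per mouse, with the geometric mean of each group of 3 as a line. The S100a9 to S100a8 ratios of day 21 lie inside the day-0 range, and the S100a10 to Anxa2 ratios of day 21 lie below all day-0 ratios.

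Of 6 genes for transcription factors linked to S100 genes, 3 rose and none fell, with a median log2 fold change of 0.63. Spi1, the master factor of myeloid cells, went from 3.11, 4.04 and 3.92 CPM on day 0 to 24.9, 28.1 and 22.1 CPM on day 21 (log2 2.75, adjusted p = 2.85e-06). Cebpd rose by 1.05 and Cebpb by 0.83 on the log2 scale (adjusted p = 0.00231 and 0.0185). Exons of both are shared with a gene on the other strand, 15.0% for Cebpd and 20.7% for Cebpb.

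Of 7 other alarmins 5 were tested and 3 rose. Lcn2, the lipocalin that binds bacterial siderophores and marks injured tubules, gave 7.52, 6.76 and 5.46 CPM on day 0 and 566, 482 and 482 CPM on day 21 (log2 6.27, SE 0.16). The nuclear cytokine Il33 (log2 1.59) and the chromatin protein Hmgb2 (log2 1.33) rose too.

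Of 16 other EF-hand genes 14 were tested, and 4 rose and 3 fell, with a median log2 fold change of 0.20. Rcn1, a calcium binder of the endoplasmic reticulum (log2 2.25), Efhd2, an actin-binding protein (log2 1.31), the protease subunit Capn1 (log2 0.73) and the calmodulin gene Calm2 (log2 0.63) rose. The cytosolic calcium buffers of the distal nephron fell. Pvalb gave 214, 317 and 122 counts on day 0 and 0, 0 and 1 count on day 21 (adjusted p = 2.02e-06), and no fold is given against so few counts. Calb1 gave 572, 556 and 325 CPM on day 0 and 181, 283 and 199 CPM on day 21 (log2 -1.13, adjusted p = 0.00248). The mitochondrial Efhd1 fell as well (log2 -0.70). Of the exon bases of Capn1 and Efhd1, 11.8% and 12.0% are shared with a gene on the other strand.

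**Figure D5:**
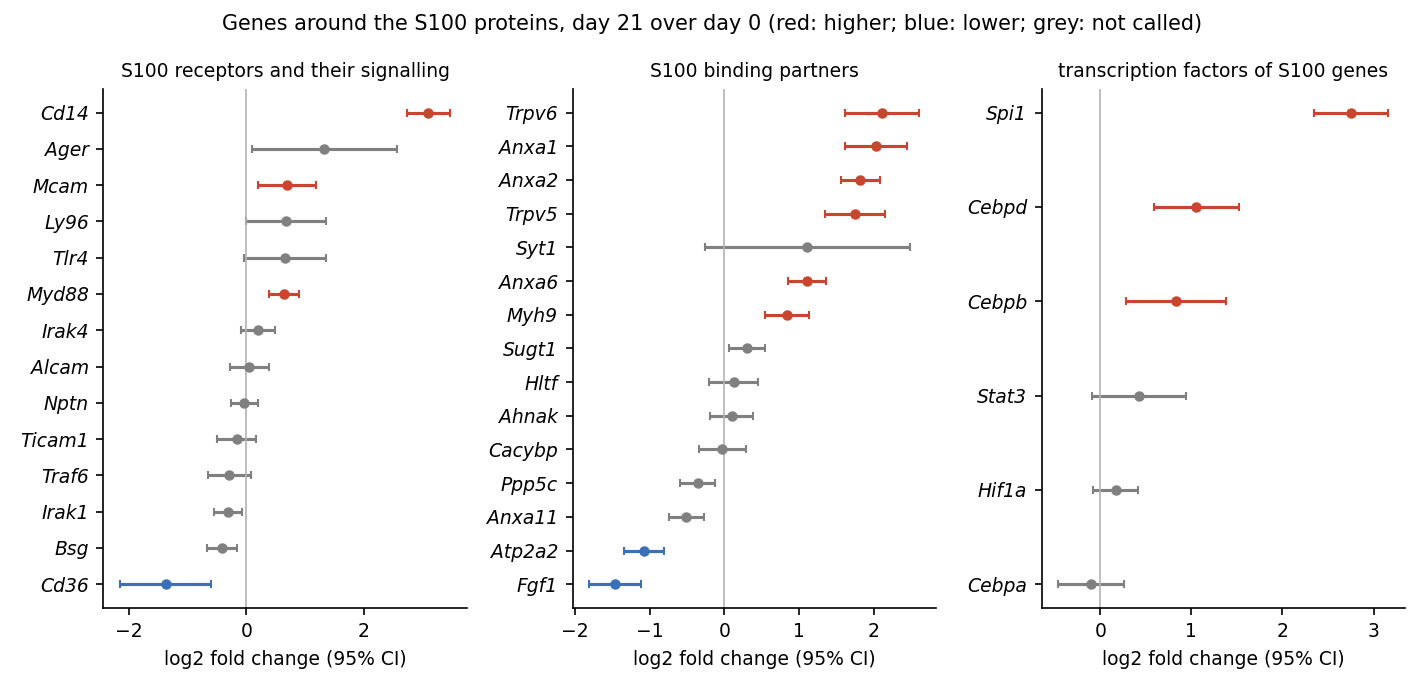
Log2 fold change of day 21 over day 0 with its 95% confidence interval (horizontal axis) for the 14 receptor and signalling genes, 15 binding partners and 6 transcription factors. Red genes were higher, blue lower and grey not called. Cd14, Trpv6, Anxa1, Anxa2 and Spi1 lie far to the right, and Ager and Syt1 have the widest intervals.

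Genes with the most similar course over the 6 mice were sought by the root mean square distance between log2 CPM profiles, each centred on its own mean, among 15822 genes with a mean of at least 1 CPM. For S100a6 these were Fyb (0.0886), an adaptor of T cells and myeloid cells, Fam111a (0.111) and Selenon (0.121). The distance includes the difference between the groups. These 3 genes had log2 fold changes of 2.29, 2.27 and 2.29, close to the 2.31 of S100a6. Of the other members, S100a11 was nearest to S100a6, at 0.483. For S100a8 the nearest genes were Car9 (0.212), a carbonic anhydrase known from hypoxic cells, Ighv1-19 (0.249), an antibody segment, and A430035B10Rik (0.278). S100a9, at 0.190, was nearer to S100a8 than any of them. Ighv1-19 gave only 4, 4 and 11 counts in the day-21 mice.

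The kidney itself had changed in its cell type markers on day 21, some lower and some higher, as among the S100 members. All 7 proximal tubule genes fell, from a summed 10611 to 12151 CPM to 2213 to 2802 CPM, and 6 of 7 injured tubule genes rose, from 776 to 1992 CPM to 19624 to 23499 CPM. Of the genes of the thick limb, distal tubule and collecting duct 6 of 9 fell, as did 2 of 5 endothelial, 3 of 4 podocyte and 1 of 5 urothelial genes, and 4 of 5 tested T and B cell genes rose. Of 4 adipocyte genes the 1 tested was not called, and their sum of 17.0 CPM in day-0 replicate 3 stood above the 0.401 to 2.14 CPM of all other mice. The part of these cell types in the S100 levels was not tested. With libraries scaled by their size alone in place of TMM, the all-gene median of the log2 fold change went from 0.03 to 0.42 and the share of higher genes among those called from 55.8% to 81.7%. On that scale S100a1 (log2 0.59) and S100a13 (log2 0.98) were also called higher, while S100a8 and S100a9 were still called lower. These calls were made against 0 and not against the shifted median of 0.42.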

How the data were processed

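Kidney mRNA of 3 day-0 and 3 day-21 mice was sequenced as paired-end cDNA. The authors deposited raw counts per gene for each mouse, without normalization. The submitters' processing notes name TopHat and mm10, and the counting program, its strand setting and read filters are not given in the sources used here. The title of each sample gave its group, and every column was matched to a sample. All 55450 identifiers matched GENCODE M21 (GRCm38), and 28536 genes had no count.

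The analysis used edgeR 4.0.16 under R 4.3.3. Genes were filtered by filterByExpr (minimum count 10, minimum total 15), libraries were scaled by TMM, and day-21 was compared with day-0 by the quasi-likelihood test without a replicate block. P-values were adjusted by Benjamini-Hochberg over the 16592 genes tested, and a call asked for a fold over 1.5 together with an adjusted p under 0.05, the thresholds of the paper. The SE of a log2 fold change was derived from the F statistic. Ratios within a library were compared by two-sided exact permutation tests (SciPy 1.17.1, Python 3.11.15). No fold was computed where both groups were at or below a floor of 3 counts per library, which covers counting error only. P-values measure the spread between mice, 3 per group.

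The members and all gene lists were chosen with earlier results of these data known. Named are every member, every other S100 gene listed, every called gene of the receptor, partner, transcription factor, alarmin and EF-hand lists with Ager, Tlr4, Anxa2, Cacybp and Cebpb, and the 3 genes most like S100a6 and S100a8. Cell type markers were taken as lists, and other genes named from them were picked after their values were seen.

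The tests were checked on simulated data made from these counts. For day-21 against day-0 over 16592 genes, edgeR called 175 of 200 genes changed 3-fold and 7 unchanged ones, DESeq2 1.42.0 called 177 and 15, and limma-voom (limma 3.58.1) 177 and 8. The simulation changed far fewer genes than the 35.1% called in the real data, in random directions. It set no overall shift between the groups, so it does not check the scaling of the real libraries. Alternatives were other scalings, filters, thresholds and tools, a replicate block and leaving out each mouse. No mice were duplicates (chi-square per gene 7.19 to 24.0 between mice of a group).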

Additional observations from a re-analysis of the deposited data

How the results depend on the processing

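Most results kept their direction and their side of the threshold under the alternatives run. Of the recomputed fold changes of single S100 members, 105 did so, 4 gained a call and 2 lost it, and none reversed. The number of members called lay between 5 and 7 when each mouse was left out in turn, was 7 with upper quartile scaling, where S100a13 (log2 0.67) was added, 8 with library size alone, 5 with a mean of at least 50 counts, which removes S100a8, and 4 when a call asked for a fold over 2 and an adjusted p under 0.01. The receptor genes called numbered 7 with library size alone and 2 under that stricter threshold, and between 2 and 5 when each mouse was left out. Called EF-hand genes numbered 4 under the stricter threshold. The summed members rose by 1.36 on the log2 scale with library size alone, against 0.97 with TMM. The S100a9 to S100a8 log2 ratio turned from -0.07 to 0.085 without day-0 replicate 1 and to 0.00194 without day-21 replicate 3, with a range from -0.22 to 0.08 over all mice left out. The cause of these shifts was not tested. Replicate numbers were not treated as a pairing, since the groups are different mice. Same-numbered mice deviated from their group means with correlations of -0.02, 0.17 and 0.09, and differently numbered mice with -0.18 to 0.12. With 3 mice per group these values cannot decide whether the numbers were linked. With the replicate block 6 members and 5758 of all genes were called, against 6 and 5821 without it. S100a4 and the other scarce S100 genes had too few counts to test, and whether depth or shared exons set this was not tested.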
